A study of Drosophila melanogaster with 31 samples.

Results

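Brains of 25-day-old male Drosophila melanogaster were set against brains of 10-day-old males, all of the wild-type strain OreR. The comparison held 4 libraries of 25-day brains and 4 libraries of 10-day brains, 8 of the 31 libraries in the series and of its 23 brain libraries. They were chosen by their labels alone. At each age, 2 libraries came from flies kept without odor and light (0 min) and 2 from flies stimulated with both for 30 min, and each pair carried the letters A and B. RNA was extracted with Trizol and made into TruSeq libraries. Estimated counts totalled 26 M to 45.8 M in the 25-day libraries and 39.6 M to 76.7 M in the 10-day libraries, where M is 1000000 counts. Replicates are described as biological by the submitters; how many brains went into a library is not given in the sources used here, so p-values measure only the spread between these libraries, which may be technical. Levels are given as counts per 1000000 (CPM) after TMM normalization.

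The adult fly brain consists of neurons and several kinds of glia, and sits between the compound eyes under the ocelli. Photoreceptors of these eyes turn light into current through rhodopsins, a phospholipase C pathway and the TRP channels. Hemocytes, the macrophage-like blood cells of the fly, fat body, muscle and gut lie outside the brain but can be carried along in a dissection. Higher expression of innate immune genes and lower expression of mitochondrial respiration genes are known features of aging in flies.

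The neuron markers elav, which encodes a neuronal RNA-binding protein, and the glial transcription factor repo were present in every library. elav had 467 and 428 CPM in the 25-day A libraries and 1175 and 1161 CPM in the 25-day B libraries, against 495 and 471 CPM in the 10-day A libraries and 461 and 452 CPM in the 10-day B libraries. In each such pair of values the 0 min library is named before the 30 min library. The elav values of the 25-day B libraries lay far above those of the other 6 libraries, which were close together.

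That split ran through the whole transcriptome. The first principal component held 59.2% of the variance, and both 25-day B libraries lay at its positive end (94.0 and 85.1), whereas the other 6 libraries lay between -77.8 and 8.48. The TMM factors of the 25-day B libraries were 0.819 and 0.824, and those of the other 25-day and the 10-day libraries ran from 1.018 to 1.099. The age difference itself depended on the letter for 5569 of 10513 genes (53% of those tested; edgeR's quasi-likelihood test of the difference, adjusted p under 0.05).

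The genes of the cytosolic ribosome, which translates messenger RNA, showed this most plainly. Summed over the list they reached 31970 and 31790 CPM in the 25-day A libraries and 14160 and 13240 CPM in the 25-day B libraries, against 28460 and 31200 CPM in the 10-day A libraries and 30530 and 28050 CPM in the 10-day B libraries. The median log2 difference of the 85 ribosomal protein genes tested was 0.10 within the A libraries and -2.30 within the B libraries, against 0.00 and -0.06 over all genes tested. RpL32, a protein of the large ribosomal subunit, stood at 333 and 333 CPM in the 25-day A libraries and at 23.8 and 36.6 CPM in the 25-day B libraries, against 297 to 326 CPM in the 10-day libraries. The 25-day A libraries thus lay slightly above the 10-day range and the 25-day B libraries far below it.

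The nuclear genes of oxidative phosphorylation, the respiratory chain and ATP synthase of mitochondria, followed the ribosomal genes. Their summed level was 11300 and 10750 CPM in the 25-day A libraries and 6465 and 6394 CPM in the 25-day B libraries, against 10850 to 11360 CPM in the 10-day libraries. Over 75 genes tested the median log2 difference was 0.01 within the A libraries and -1.57 within the B libraries. The mitochondrial ribosomal proteins had medians of -0.01 (A) and -1.53 (B) over 72 genes, and the proteasome subunits, which degrade tagged proteins, had 0.06 (A) and -1.23 (B) over 37 genes. The lower level of these groups at 25 days thus appeared within the B libraries and not within the A libraries.

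Genes of neurons and of the mitochondrial genome stood the other way in the B libraries. The neuron markers summed to 11500 and 11220 CPM in the 25-day A libraries and to 21080 and 20330 CPM in the 25-day B libraries, against 11940 to 12560 CPM in the 10-day libraries. The transcripts of the mitochondrial genome summed to 22110 and 20530 CPM in the 25-day A libraries and to 35470 and 53940 CPM in the 25-day B libraries, against 11760 to 29760 CPM in the 10-day libraries. Median log2 differences within the B libraries also depended on transcript length, at -0.35, -0.24, -0.03 and 0.21 over 4 equal classes of genes from the shortest to the longest. Within the A libraries the same classes gave 0.03, 0.00, -0.02 and 0.00. The part of length, of RNA quality and of the sequencing instrument in this split was not tested; the labels name 2 instrument types for these brains but give none per library.

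In a joint normalization with the 6 libraries of 4- to 5-day brains at 0 and 30 min, the cytosolic ribosomal list summed to 13330 to 23490 CPM at 5 days, 27390 to 30130 CPM at 10 days, and 30380 and 30330 CPM (A) and 13510 and 12660 CPM (B) at 25 days. The neuron markers summed to 13350 to 20560 CPM at 5 days, 11400 to 12130 CPM at 10 days, and 10930 and 10700 CPM (A) and 20110 and 19440 CPM (B) at 25 days. On the ribosomal list the 25-day 0 min B library lay at the low end of the 5-day range and the 25-day 30 min B library below it. Of the 6 libraries at 5 days, 2 stood near them (14090 and 13330 CPM), while the other 4 lay between 21700 and 23490 CPM. On the neuron list both 25-day B libraries lay within the 5-day range. On the oxidative phosphorylation and proteasome lists both lay below it. Oxidative phosphorylation genes summed to 8602 to 13520 CPM at 5 days, 10600 to 10950 CPM at 10 days, and 10730 and 10250 CPM (A) and 6168 and 6113 CPM (B) at 25 days. Proteasome genes summed to 845 to 1252 CPM at 5 days, 1296 to 1404 CPM at 10 days, and 1377 and 1434 CPM (A) and 654 and 685 CPM (B) at 25 days.

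**Figure D1:**
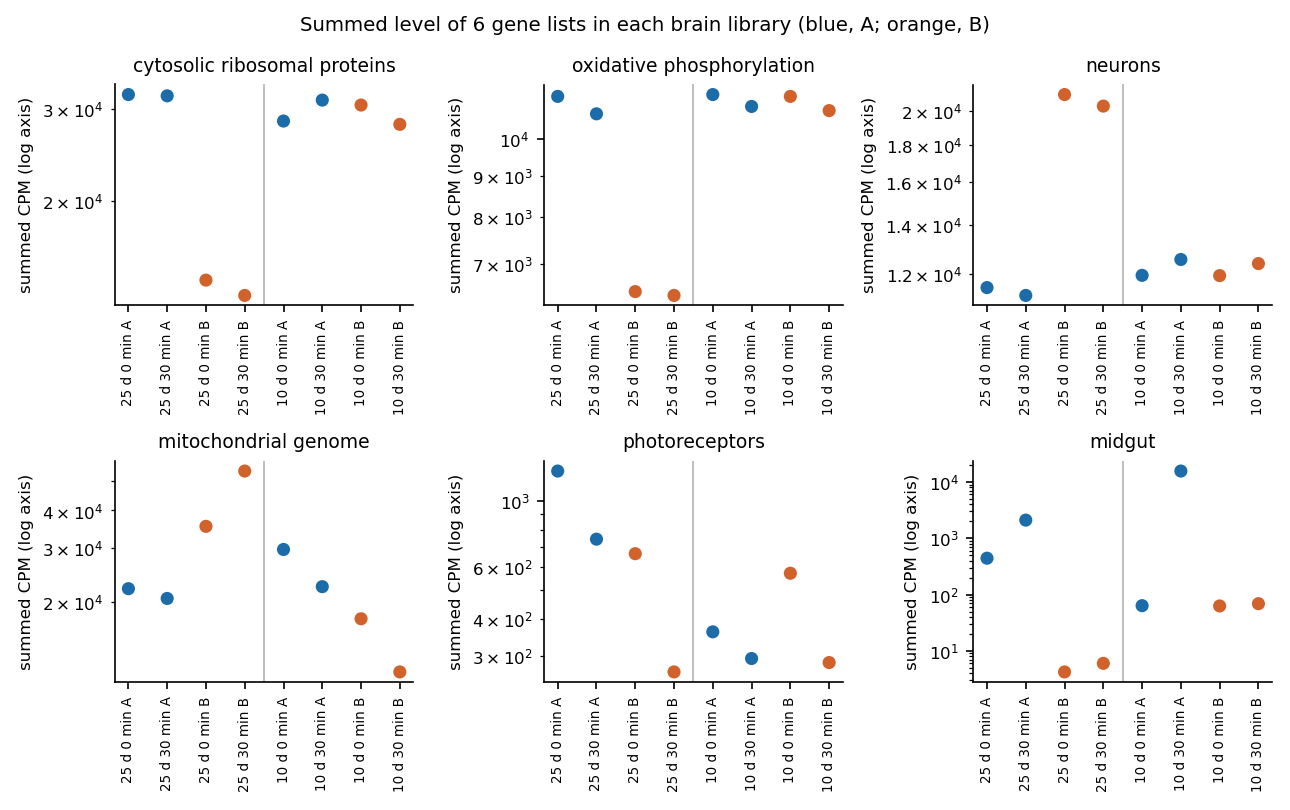
Summed CPM of 6 gene lists in each of the 8 libraries (log axis, a separate range per panel), 25-day libraries left of the line and 10-day libraries right of it, A in blue and B in orange. The 25-day B libraries stand apart on the ribosomal, oxidative phosphorylation and neuron lists, and the 10-day 30 min A library stands at 15620 CPM on the midgut list.

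Another library held a high level of gut transcripts, whose source was not tested. The midgut list, digestive enzymes and lysozymes of the gut, summed to 443 and 2101 CPM in the 25-day A libraries and to 4.23 and 6.01 CPM in the 25-day B libraries, against 63.6 and 15620 CPM in the 10-day A libraries and 62.8 and 69.0 CPM in the 10-day B libraries. LysB, a lysozyme whose reads are hard to separate from those of LysD and LysE, stood at 0.0909 and 0.110 CPM in the 25-day A libraries and at 0 CPM in the 25-day B libraries, against 0.162 and 156 CPM in the 10-day A libraries and 0.278 and 0 CPM in the 10-day B libraries. The midgut list was thus highest in the 10-day 30 min A library, followed by the 25-day 30 min A and 25-day 0 min A libraries. LysB was high in the 10-day 30 min A library alone. Midgut markers were left in the analysis. Over the 12 members tested, the median log2 difference was -4.11 with this library and 0.32 without it.

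Over both times, 0 of 10513 genes (0%) passed an adjusted p of 0.05 between 25-day and 10-day brains in edgeR's quasi-likelihood test, with time and letter as covariates. At an unadjusted p under 0.05 there were 808 genes (7.69%), 544 higher at 25 days (5.17%) and 264 lower (2.51%). DESeq2 with the same covariates called 94 genes, 76 higher and 18 lower. All 76 of the higher ones were higher at 25 days in all 4 matched pairs, made of the same libraries that gave the calls. A matched pair is a 25-day and a 10-day library that shared a time and a letter, so it is matched by label alone. Of the 18 lower ones, 12 were higher in 0 of the 4 pairs, a count that includes pairs of equal value. Among all genes tested 972 (9.25%) were higher in all 4 pairs and 677 (6.44%) in 0 of them. The 4 libraries of each age did not overlap for 338 genes higher at 25 days (3.22%) and 197 lower (1.87%).

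The number of calls rested on which libraries were in the fit. The A libraries alone gave 29 genes (0.275%), 10 higher and 19 lower. This fit held the 10-day 30 min A library, at 15620 CPM on the midgut list. Its lower calls included thetaTry and kappaTry, at -8.80 and -7.875 on the log2 scale. Diedel3, CG30031 and CG6283 were lower calls too, at -6.55, -6.63 and -6.93. Their 10-day levels of 73.9, 114 and 32.9 CPM came from that library, with at most 0.0462 CPM in the other 10-day libraries. The B libraries alone gave 7248 (67.8%), 3393 higher and 3855 lower. Without both 25-day B libraries 0 of 10819 genes (0%) passed and 656 (6.06%) had an unadjusted p under 0.05, and without these and the 10-day 30 min A library 106 genes passed (1.01%), 96 of them higher. The fits on A, on B and without 3 libraries each had 1 residual degree of freedom, so their estimate of the spread rests mostly on sharing between genes.

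**Figure D2:**
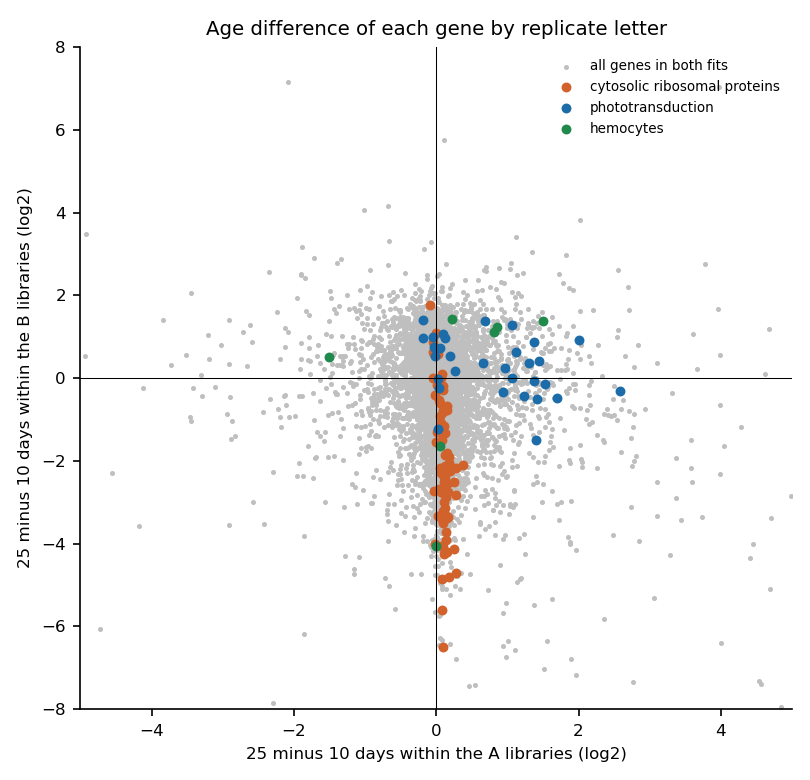
Log2 difference of each gene, 25 minus 10 days, within the A libraries (horizontal axis) and within the B libraries (vertical axis), for 10225 genes in both fits, of which 37 fall outside the axes. Ribosomal protein genes (orange) spread down the vertical axis near 0 on the horizontal one, and 4 hemocyte genes (green) and several phototransduction genes (blue) are positive on both.

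Since fewer than 5 genes passed in either direction, the 10 genes with the smallest p in each direction and an average log2 CPM of at least 1 are described. The 10 higher ones were CG9689, CG10799, Sting, Pdh, CG3036, CG12256, NimC1, Hml, Dtg and Karl. All 10 were higher at 25 days in all 4 matched pairs and within both letters, and DESeq2 called all 10. In edgeR's quasi-likelihood test, however, their adjusted p ran from 0.316 to 0.328. The genes were chosen by their p in these same libraries, so the pairs, letters and DESeq2 give no independent support. In a bulk library, more cells of a type and more RNA per cell cannot be told apart.

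Sting encodes the receptor for cyclic dinucleotides that starts antiviral defence. It stood at 22.4 and 30.9 CPM in the 25-day A libraries and at 21.2 and 23.8 CPM in the 25-day B libraries, against 10.5 and 8.26 CPM in the 10-day A libraries and 7.56 and 6.45 CPM in the 10-day B libraries. The ages did not overlap, and the 25-day B libraries lay close to their A counterparts. The log2 difference was 1.59 ± 0.18 (SE; n = 4 libraries each; edgeR's quasi-likelihood test, adjusted p = 0.328), and DESeq2 gave an adjusted p of 2.9e-11. On the joint scale its median was 7.95 CPM at 5 days, 7.60 CPM at 10 days and 22.0 CPM at 25 days.

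CG9689 (X:9881953-9883670, BDGP6.54, + strand) had the smallest p. It stood at 30.6 and 17.5 CPM in the 25-day A libraries and at 48.4 and 36.2 CPM in the 25-day B libraries, against 10.3 and 7.96 CPM in the 10-day A libraries and 21.7 and 12.98 CPM in the 10-day B libraries. The ages overlapped through the letters, since B exceeded A at both ages, but within each letter every 25-day value lay above every 10-day value. The log2 difference was 1.34 ± 0.13 (SE; edgeR's quasi-likelihood test, adjusted p = 0.316).

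CG12256 had the highest levels among the 10. It stood at 105 and 88.5 CPM in the 25-day A libraries and at 220 and 261 CPM in the 25-day B libraries, against 50.2 and 27.5 CPM in the 10-day A libraries and 108 and 83.2 CPM in the 10-day B libraries. The 25-day values exceeded the 10-day ones within each letter and overlapped them across letters. On the joint scale its median was 3.36 CPM at 5 days, with 1 of 6 libraries at 42.1 CPM and the others at 2.67 to 6.56 CPM, 64.8 CPM at 10 days and 155 CPM at 25 days.

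Pdh (3L:16353233-16354297, BDGP6.54, - strand), a retinol dehydrogenase of the eye's visual cycle, averaged 18.9 ± 7.85 CPM in 25-day brains and 7.43 ± 4.76 CPM in 10-day brains (SD, n = 4 each). Its log2 difference was 1.82 within the A libraries and 1.03 within the B libraries. Karl, a lipocalin, averaged 11.4 ± 1.27 CPM in 25-day brains and 4.51 ± 1.11 CPM in 10-day brains, and its ages did not overlap. CG10799, CG3036 and Dtg had log2 differences of 1.51 ± 0.15, 0.79 ± 0.11 and 1.44 ± 0.21 (SE).

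**Figure D3:**
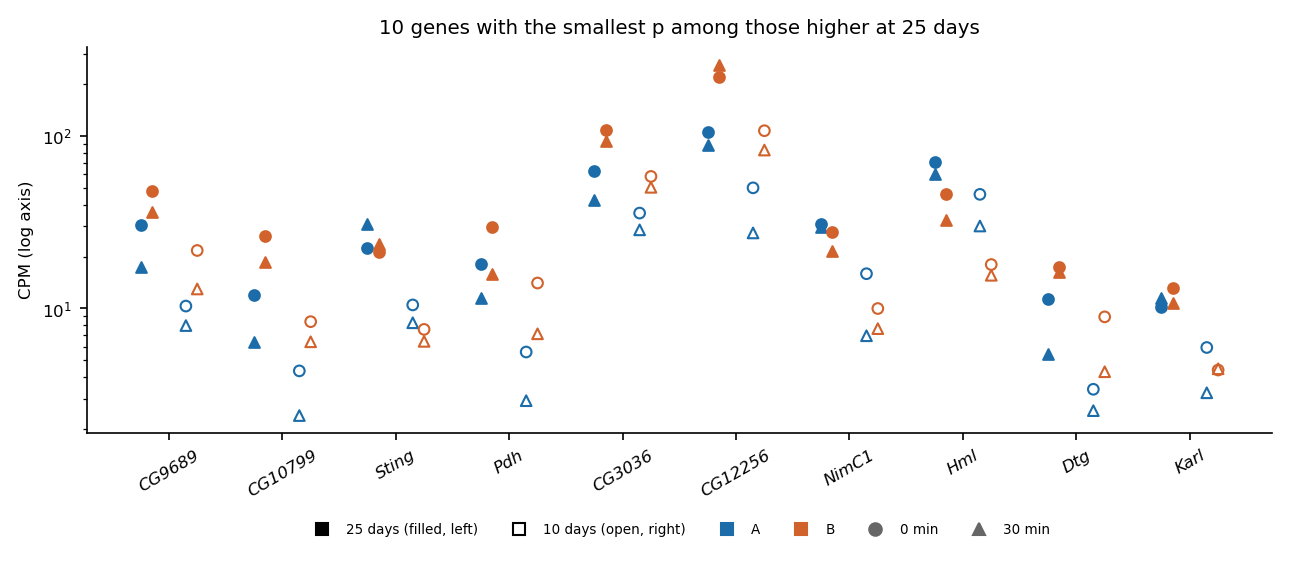
CPM of the 10 genes with the smallest p among those higher at 25 days (log axis), 25-day libraries filled and on the left, 10-day libraries open and on the right, A in blue, B in orange, circles for 0 min and triangles for 30 min. Every filled symbol lies above the open symbol of the same colour and shape, and Sting, NimC1 and Karl show no overlap of the ages.

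Hemocyte markers had a median log2 difference of 0.88 over 7 genes tested of 8 matched, 0.22 within the A libraries and 1.12 within the B libraries. At an unadjusted p under 0.05, 4 of the 7 were higher at 25 days and 0 lower, beside 5.17% higher and 2.51% lower among all genes. The 4 were receptors or clotting factors of plasmatocytes, the phagocytic hemocytes. NimC1 (2L:13973158-13976769, BDGP6.54, - strand), a receptor for bacteria, stood at 30.8 and 29.6 CPM in the 25-day A libraries and at 27.7 and 21.6 CPM in the 25-day B libraries, against 15.9 and 6.95 CPM in the 10-day A libraries and 10.0 and 7.64 CPM in the 10-day B libraries. All 4 values of 25-day brains exceeded all 4 of 10-day brains (log2 difference 1.49 ± 0.20, SE; edgeR's quasi-likelihood test, adjusted p = 0.328).

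Hml (3L:13846054-13860001, BDGP6.54, + strand), which encodes the clotting protein hemolectin, stood at 71.2 and 60.7 CPM in the 25-day A libraries and at 46.2 and 32.7 CPM in the 25-day B libraries, against 46.0 and 30.1 CPM in the 10-day A libraries and 18 and 15.6 CPM in the 10-day B libraries. A exceeded B at both ages, and the 25-day libraries were higher within each letter. The scavenger receptor Sr-CI stood at 14.3 and 9.96 CPM in the 25-day A libraries and at 17.9 and 11.04 CPM in the 25-day B libraries, against 9.47 and 4.56 CPM in the 10-day A libraries and 6.32 and 4.89 CPM in the 10-day B libraries. Its ages did not overlap. The phagocytosis receptor eater was higher in 4 of 4 pairs, by 0.22 within the A libraries and 1.42 within the B libraries on the log2 scale.

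The other hemocyte genes did not share this pattern. Pxn, a matrix peroxidase, stood at 222 and 204 CPM in the 25-day A libraries and at 79.1 and 89.5 CPM in the 25-day B libraries, against 192 to 259 CPM in the 10-day libraries. PPO2, a prophenoloxidase of crystal cells, the melanizing hemocytes, stood at 56.7 and 45.3 CPM in the 25-day A libraries and at 3.68 and 3.27 CPM in the 25-day B libraries, against 46.9 to 56.2 CPM in the 10-day libraries. Both genes were thus within or near the 10-day range in A and below it in B. Summed over the list, hemocyte markers had 166 to 405 CPM in 25-day libraries and 313 to 349 CPM in 10-day libraries, so the sum, to which Pxn gave the most, did not separate the ages. In the A libraries alone 2 hemocyte markers were higher at an unadjusted p under 0.05, beside 3.99% of all genes there.

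Genes of the eye were the next group. Of the 9 photoreceptor markers 5 were higher at 25 days at an unadjusted p under 0.05 and 0 lower, beside 5.17% and 2.51% of all genes, with a median log2 difference of 0.87. Of the 31 phototransduction genes tested, a list that holds the same markers, 11 were higher and 0 lower, against the same 5.17% and 2.51%, and the median was 0.57, beside 0.03 over all genes. These counts, and those over all genes, changed with single libraries. The photoreceptor count was 3 without the 25-day 0 min A, 25-day 0 min B, 10-day 0 min A or 10-day 30 min A library. It was 2 without the 25-day 30 min A library. In these fits 1742, 346, 2206, 1734 and 803 of all genes, in that order, had an unadjusted p under 0.05 in either direction. With all 8 libraries 808 did. The phototransduction count was 5 without the 25-day 0 min B or the 10-day 30 min B library. It was 7 without the 25-day 30 min A or the 10-day 0 min B library. In these fits 346, 346, 803 and 381 of all genes, in that order, had such a p. Rh3, an ultraviolet-sensitive opsin, stood at 20.4 and 12.3 CPM in the 25-day A libraries and at 29.6 and 18.5 CPM in the 25-day B libraries, against 5.57 and 2.75 CPM in the 10-day A libraries and 14.5 and 9.37 CPM in the 10-day B libraries. It was higher in 4 of 4 pairs, with overlap across letters (log2 difference 1.5 ± 0.25, SE; edgeR's quasi-likelihood test, adjusted p = 0.328).

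Most of the remaining eye genes differed mainly within the A libraries. ninaE, the major opsin of the outer photoreceptors, stood at 342 and 224 CPM in the 25-day A libraries and at 292 and 113 CPM in the 25-day B libraries, against 60.7 and 35.0 CPM in the 10-day A libraries and 312 and 146 CPM in the 10-day B libraries. The 10-day A libraries were low and the other 6 were high, so the log2 difference was 2.58 within the A libraries (edgeR's quasi-likelihood test on the A libraries alone, adjusted p = 0.00163) and -0.33 within the B libraries. All 9 photoreceptor markers had an unadjusted p under 0.05 in the A libraries, where 3.99% of all genes were higher at that threshold. The arrestin Arr2, which shuts off rhodopsin, stood at 465 and 262 CPM in the 25-day A libraries and at 171 and 60.4 CPM in the 25-day B libraries, against 154 and 130 CPM in the 10-day A libraries and 110 and 50.7 CPM in the 10-day B libraries.

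Arr2 was higher at 25 days in 4 of 4 pairs, by 1.30 (A) and 0.35 (B) on the log2 scale. Rh2, the opsin of the ocelli, stood at 495 and 239 CPM in the 25-day A libraries and at 157 and 33.2 CPM in the 25-day B libraries, against 177 and 141 CPM in the 10-day A libraries and 75.8 and 25.2 CPM in the 10-day B libraries. It was also higher in 4 of 4 pairs. For Arr2 and Rh2, the 0 min library stood above the 30 min library in each letter at each age. The level of these transcripts thus differed within 1 age as well, both genes being read in the same libraries. The 0 min and 30 min libraries also differed in the odor and light stimulus. Its part cannot be told apart from that of tissue carried along. The part of eye tissue carried along with the brain in these differences was not tested.

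Without both 25-day B libraries and the 10-day 30 min A library, eye genes were among the genes called. The largest differences among the higher ones belonged to other genes, CG7017 (13.6), CG46307 (12.5) and CG10725 (10.2) on the log2 scale. That fit kept the 25-day A libraries, at 443 and 2101 CPM on the midgut list. Its 10-day libraries stood at 63.6, 62.8 and 69.0 CPM there. The part of gut transcripts in these calls was not tested. In that fit the 10-day 0 min A library was the only A library at 10 days, so with letter as a term the age difference rests on this lone library, which is assumed to vary like the others, and its adjusted p-values are a description. The TRP channel genes trp and trpl differed by 1.97 and 1.98 on the log2 scale in that fit. Arr1, Rh3, chp, inaC, Arr2, ninaC and Gbeta76C, which encode signalling and structural proteins of the photoreceptor, and the visual cycle gene Pdh had differences of 1.29 to 1.84. Of the 10 genes with the smallest p in the full comparison, 5 passed there (CG9689, CG12256, Pdh, NimC1 and Dtg). Within the B libraries trp and trpl had log2 differences of -0.15 and -0.48.

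Some other genes of the visual system, named after their values were seen, had larger differences within the B libraries. Rh7, an opsin also found in brain clock neurons, stood at 29.7 and 25.1 CPM in the 25-day A libraries and at 66.7 and 61.6 CPM in the 25-day B libraries, against 24.3 to 28.9 CPM in the 10-day libraries. The carotenoid uptake receptor gene santa-maria, active in neurons and glia, stood at 71.5 and 68.6 CPM in the 25-day A libraries and at 133 and 117 CPM in the 25-day B libraries, against 57.5 to 67.2 CPM in the 10-day libraries. For both genes the difference came chiefly from the 25-day B libraries. The histamine receptors ort and HisCl1, through which photoreceptors signal to brain neurons, had log2 differences of 0.36 ± 0.14 and 0.51 ± 0.20 (SE) and were higher in 4 of 4 pairs. Their differences were 0.10 and 0.18 within the A libraries and 0.51 and 0.74 within the B libraries.

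**Figure D4:**
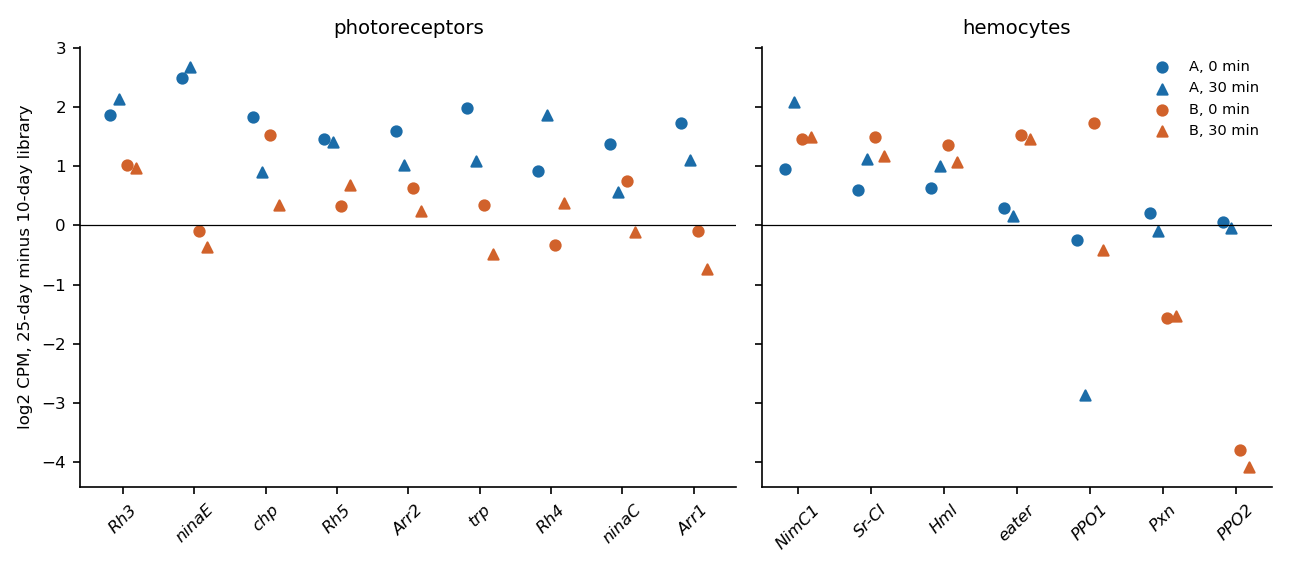
Log2 CPM difference, 25-day minus 10-day library, in each of the 4 matched pairs for the photoreceptor and hemocyte markers tested (A in blue, B in orange, circles for 0 min, triangles for 30 min). Rh3, chp, Rh5 and Arr2, and NimC1, Sr-CI, Hml and eater, lie above 0 in all 4 pairs, whereas ninaE and Arr1 lie below 0 in B and PPO2 lies near -4 in B.

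Immune genes beyond Sting gave mixed values. Of 32 immune signalling genes tested, 4 had higher values, with an unadjusted p under 0.05 (Sting, Tep2, PGRP-LF and Tep1) and 1 was lower (PGRP-SC2), beside 5.17% higher and 2.51% lower of all genes, with a median log2 difference of 0.16. Tep2, a thioester-containing opsonin-like protein, stood at 72.8 and 71.3 CPM in the 25-day A libraries and at 114.9 and 102 CPM in the 25-day B libraries, against 52.3 to 71.1 CPM in the 10-day libraries. All 4 values of 25-day brains lay above the 10-day range, by a narrow margin in A. PGRP-SC2, an amidase that degrades peptidoglycan, stood at 112 CPM in the 10-day 30 min A library and at 0.0532 to 2.18 CPM in the other 7, so its difference of -3.72 on the log2 scale rested on that library and was -1.16 without it.

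Antimicrobial peptides, the effectors of this defence, were low in most libraries. Of the 19 tested, 3 were higher (DptA, BomT2 and Def) and 1 was lower (BomBc1) at an unadjusted p under 0.05, beside 5.17% and 2.51% of all genes, and the list median was -0.28. DptA, a diptericin of the Imd pathway, stood at 19.7 and 12.4 CPM in the 25-day A libraries and at 0.609 and 0.532 CPM in the 25-day B libraries, against 0.462 and 1.86 CPM in the 10-day A libraries and 0.363 and 0.0498 CPM in the 10-day B libraries. The 25-day A libraries were high and the 25-day B libraries lay among the 10-day values (log2 difference 2.67 ± 0.84, SE; edgeR's quasi-likelihood test, adjusted p = 0.328).

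Detoxification genes, chiefly cytochrome P450 enzymes and transferases, had 7 members higher and 1 lower of 52 tested at an unadjusted p under 0.05, beside 5.17% and 2.51% of all genes, with a median of 0.22 that was -0.04 within the A libraries and 0.48 within the B libraries. Cyp4e2, a P450, stood at 25.2 and 20.9 CPM in the 25-day A libraries and at 31.2 and 24.5 CPM in the 25-day B libraries, against 16.3 and 14.9 CPM in the 10-day A libraries and 13.4 and 14.3 CPM in the 10-day B libraries. Its ages did not overlap (log2 difference 0.78 ± 0.15, SE). The count of higher members was 15 without the 10-day 30 min A library, where 6.82% of all genes were higher. It was 3 without any 1 of the 4 B libraries, where 346 to 381 genes had an unadjusted p under 0.05 in either direction. With all 8 libraries 808 genes did. The count of higher members was 2 in the A libraries alone, beside 3.99% of all genes, and 27 in the B libraries alone, beside 32.8%.

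Of 40 neuropeptide genes tested, 3 were higher at an unadjusted p under 0.05 and 0 lower, beside 5.17% and 2.51% of all genes, a count near the background. Within the A libraries 1 was higher (Hug) and 3 were lower (ITP, Eh and CCHa2), beside 3.99% and 1.31% of all genes there, with log2 differences of -0.40, -0.66 and -0.78 for the 3 lower ones. Within the B libraries the same 3 stood at 0.97, 0.15 and 0.94. Ilp3, an insulin-like peptide of the brain's insulin-producing cells, stood at 24.4 and 35.8 CPM in the 25-day A libraries and at 86.8 and 67.0 CPM in the 25-day B libraries, against 17.5 to 28.9 CPM in the 10-day libraries. The 25-day 0 min A library lay within the 10-day range and the B libraries far above it. NPF and Dsk, peptides that act in feeding, had log2 differences of 0.32 ± 0.10 and 0.63 ± 0.23 (SE), and the insulin receptor gene InR had 0.52 ± 0.17. Within the A libraries these 3 genes differed by 0.22, 0.10 and 0.21.

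With all 8 libraries, synaptic vesicle release, learning and memory, neuron and glia lists had 0 members past an unadjusted p of 0.05 in either direction. This was of 33, 27, 11 and 9 tested, beside 7.69% of all genes. Their medians within the A libraries ran from -0.10 to -0.01, and within the B libraries from 0.24 to 0.68. At that threshold 2 of the 9 glia and 1 of the 11 neuron markers were lower within the A libraries, beside 1.31% of all genes there. Of 15 activity-regulated genes 2 were higher, beside 5.17% of all genes. Arc1, a capsid-forming gene of synaptic plasticity, stood at 58.5 and 84.8 CPM in the 25-day A libraries and at 35.5 and 38.1 CPM in the 25-day B libraries, against 22.3 and 38.5 CPM in the 10-day A libraries and 29.5 and 27.6 CPM in the 10-day B libraries. It was higher in 4 of 4 pairs and passed the test in the A libraries alone (log2 difference 1.26; edgeR's quasi-likelihood test, adjusted p = 0.0230), where ple, which encodes tyrosine hydroxylase, the first enzyme of dopamine synthesis, passed too (0.98, adjusted p = 0.0455).

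Of the 31 DNA repair genes tested 4 were higher (rad50, RPA1, PolZ1 and tefu) and 0 lower at an unadjusted p under 0.05, and of 27 oxidative stress genes 2 were higher and 3 lower, beside 5.17% higher and 2.51% lower of all genes. rad50, of the complex that senses double-strand breaks, stood at 46.1 and 49.2 CPM in the 25-day A libraries and at 106 and 89.6 CPM in the 25-day B libraries, against 41.7 to 50.2 CPM in the 10-day libraries. Its difference was 0.17 within the A libraries and 0.88 within the B libraries. Muscle genes had 2 members lower (Mhc and Prm) of 10 tested, beside 2.51% of all genes.

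**Figure D5:**
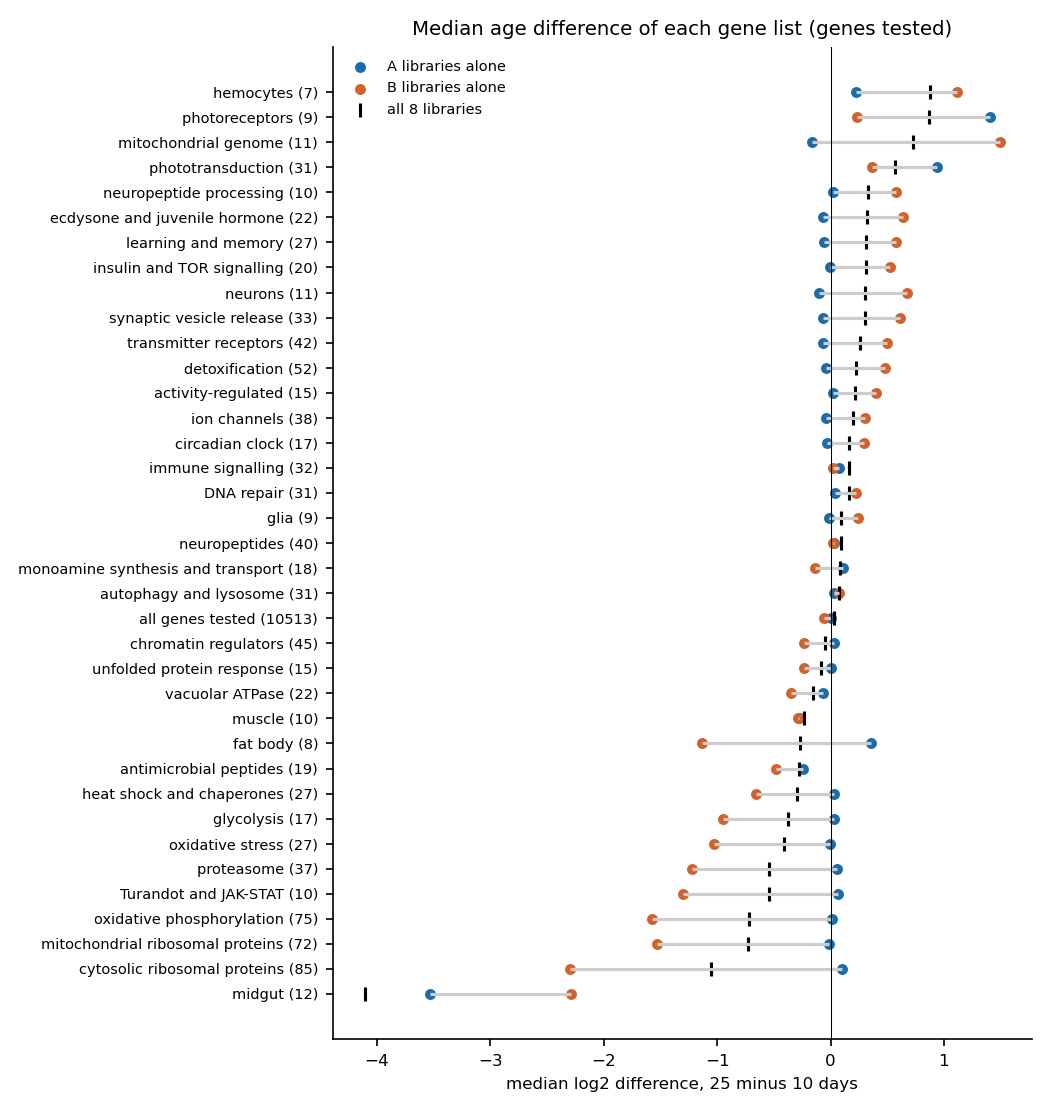
Median log2 difference, 25 minus 10 days, of each gene list (number of genes tested in brackets) in the A libraries alone (blue), the B libraries alone (orange) and all 8 libraries (black). Most lists lie near 0 in A and spread in B. Hemocyte, photoreceptor and phototransduction medians are positive in both, as are some others with smaller A medians, such as DNA repair (0.04 in A and 0.23 in B). The midgut median is negative in both, as are others such as muscle (-0.28 and -0.28) and antimicrobial peptides (-0.24 and -0.48).

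The 10 genes with the smallest p among those lower at 25 days were Diedel3, CG6283, CG5597, CG30031, CG32512, CG33127, CG8785, CG3032, Mhc and CtsK2. For Diedel3, CG6283, CG30031 and CG33127 the 10-day level came from a single library. Diedel3 stood at 0 to 0.771 CPM in the 25-day libraries, against 73.9 CPM in the 10-day 30 min A library and 0 to 0.0462 CPM in the other 10-day libraries. CG33127 stood at 0 to 0.331 CPM in the 25-day libraries, against 23.9 CPM in the 10-day 30 min A library and 0.0242 to 0.139 CPM in the other 10-day libraries. Without that library the log2 differences of Diedel3 and CG33127 were -1.50 ± 1.03 and -2.16 ± 0.999 (SE), against -6.38 and -5.19 with it. CG30031 went from -6.47 to 0.94, with an SE of 4713, and CG6283 had too few counts to be tested. The remaining levels of these genes were near 0, at most 1.14 CPM, so the values without that library give no direction.

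The other 6 were lower in 4 of 4 pairs. DESeq2 called 6 of the 10, namely CG3032, CG32512, CG33127, CG5597, CG8785 and CtsK2. CG32512 stood at 6.48 and 4.56 CPM in the 25-day A libraries and at 2.96 and 3.46 CPM in the 25-day B libraries, against 7.90 and 13.1 CPM in the 10-day A libraries and 8.11 and 6.59 CPM in the 10-day B libraries. Its ages did not overlap, narrowly in the case of the 25-day 0 min A library (log2 difference -1.06 ± 0.25, SE; edgeR's quasi-likelihood test, adjusted p = 0.328). Without both 25-day B libraries and the 10-day 30 min A library the difference was -0.35. In that fit CG5597, CG8785, CtsK2 and Mhc stood at -0.52, -0.42, -0.235 and -0.15, against -0.794, -1.075, -1.835 and -0.766 with all 8 libraries. CG3032 stood at -0.517 in the A libraries alone, against -0.815 with all 8. Mhc, the muscle myosin heavy chain, stood at 87.7 and 63.0 CPM in the 25-day A libraries and at 34.3 and 28.9 CPM in the 25-day B libraries, against 90.1 and 114.9 CPM in the 10-day A libraries and 67.7 and 64.7 CPM in the 10-day B libraries. It ran from 19.4 to 208 CPM among the 5-day libraries on the joint scale, a wider range than at 10 or 25 days.

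HDAC6, a cytoplasmic deacetylase, stood at 297 and 269 CPM in the 25-day A libraries and at 43.7 and 42.8 CPM in the 25-day B libraries, against 224 and 246 CPM in the 10-day A libraries and 289 and 274 CPM in the 10-day B libraries. The 25-day libraries thus held both its highest and its lowest values. The log2 difference was -1.22 ± 0.69 (SE; edgeR's quasi-likelihood test, adjusted p = 0.328), 0.26 within the A libraries and -2.80 within the B libraries. cbt, an immediate transcription factor gene, had 103 ± 34.3 CPM in 25-day brains and 86.7 ± 16.3 CPM in 10-day brains (SD, n = 4 each), with a difference of 0.22 ± 0.14 (SE), -0.07 within A and 0.40 within B.

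Within each time no gene passed in edgeR either. Without stimulus 0 of 10513 genes (0%) passed in edgeR and 152 (1.45%) had an unadjusted p under 0.05, and at 30 min 0 (0%) passed and 243 (2.31%) did. DESeq2 called 9 genes at 0 min and 38 at 30 min. The 5 with the smallest p at 0 min were Fst, CG9689, Sting, CG10799 and Cyp6g2, and at 30 min Alp10, Sting, CG12256, NimC1 and CG6283. Fst stood at 8.45 CPM in the 25-day 0 min A library and at 0 to 0.0693 CPM in the other 0 min libraries. Its difference at 0 min thus rests on that library. Alp10 differed by -7.26 at 30 min (log2). Without the 10-day 30 min A library the value was -3.82, at only 0 to 0.661 CPM in the remaining 30 min libraries. Sting differed by 1.29 ± 0.21 at 0 min and by 1.89 ± 0.21 at 30 min (log2, SE), and the test of the difference between times gave 0.60 ± 0.29 (edgeR's quasi-likelihood test, adjusted p = 1).

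No gene passed the test of that difference in edgeR (0 of 10513, 0%), 46 (0.438%) had an unadjusted p under 0.05, and DESeq2 called 1, Cyp6g2. Cyp6g2, a P450 of the corpora allata, stood at 25.4 and 119 CPM in the 25-day A libraries and at 8.24 and 25.7 CPM in the 25-day B libraries, against 94.2 and 32.7 CPM in the 10-day A libraries and 26.4 and 15.0 CPM in the 10-day B libraries. It was higher at 30 min than at 0 min in both letters at 25 days and lower at 30 min in both letters at 10 days. Akh, the adipokinetic hormone of the neighbouring corpora cardiaca, stood at 29.7 and 69.5 CPM in the 25-day A libraries and at 17.7 and 24.9 CPM in the 25-day B libraries, against 89.2 and 17.0 CPM in the 10-day A libraries and 58.6 and 19.6 CPM in the 10-day B libraries. Its order was the same as that of Cyp6g2. The difference between times was 3.10 ± 0.43 for Cyp6g2 and 2.84 ± 0.60 for Akh on the log2 scale (SE; edgeR's quasi-likelihood test, adjusted p = 1 for both). Both glands lie behind the brain, and their share of the dissected tissue in these values was not tested.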

How the data were processed

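Brain RNA-seq of 25-day and 10-day OreR males was analysed from 1 table per library. Each table lists 30490 transcripts with a TPM value and an estimated count, both made by the authors before deposit, per the file headers. The submitters' processing notes name kallisto 0.43.1 as the pseudoaligner, and beside it CASAVA 1.7, edgeR 3.18.1 and the build dm6. No source used here gives the strand setting, the trimming or the annotation release. The deposited lengths and effective lengths, per the file headers, differed by 325 bases in the A libraries and by 335 in the B libraries.

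Gene identities came from Ensembl's BDGP6.54 annotation (30255 transcripts matched, 13821 genes; 0.4% to 0.514% of a library's counts stayed unmatched), and the transcripts' estimated counts were added up within a gene, then rounded. Since kallisto divides reads among similar transcripts, near-identical genes (LysB, LysD and LysE; AttA and AttB; trypsin-like families) and overlapping genes carry an uncertain split. Genes were tested in edgeR 4.0.16 (R 4.3.3; TMM, filterByExpr, robust quasi-likelihood F-test) with age, time and replicate letter as terms, or with 1 coefficient per age and time plus letter for the within-time contrasts and the interaction, and p-values were adjusted by Benjamini-Hochberg over all genes tested (threshold 0.05). Standard errors come from the F-statistic. CPM is TMM-normalised, and log2 CPM of single libraries has a prior count of 2. Coordinates are 1-based. The fits were tested on simulated data. Alternatives were DESeq2 1.42.0, its size factors in edgeR, no filter, no letter term, no time term, all 23 brain libraries, limma 3.58.1 on log2(TPM + 1) with a TPM minimum of 1, leaving out each library, and fits without the libraries that stood apart. TPM sums to 1000000 per library and served in that 1 alternative.

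Named genes are HDAC6 and cbt, the 10 genes with the smallest p per direction with an average log2 CPM of at least 1 (used since under 5 genes passed), and the 5 with the smallest p of each within-time contrast and of the interaction. Members of lists, and genes of the reduced fits, were named after their values were seen. The comparison, the lists and the tests were chosen with earlier results of these data known. Counts of members are described beside the share among all genes, without a test of the list.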

Additional observations from a re-analysis of the deposited data

Results flagged for a closer look

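Among 128 groups of 4 libraries examined (named genes and gene lists at each age), 19 had 1 library whose gap to its neighbour exceeded Dixon's critical value; chance gives this for about 1 group in 20. Most of these values belonged to the A libraries stimulated for 30 min. At 25 days, the 30 min A library was the highest of its group for Diedel3 (0.7714 CPM), CG6283 (0.2571 CPM), CG30031 (1.139 CPM), CG33127 (0.3306 CPM), Jon99Ciii, a gut serine protease (5.216 CPM), and Cyp6g2 (118.6 CPM). At 10 days, the 30 min A library was the highest for Diedel3 (73.94 CPM), CG6283 (32.87 CPM), CG30031 (114.4 CPM), CG33127 (23.88 CPM), Jon99Ciii (462.4 CPM), CtsK2 (24.45 CPM), Fst (11.06 CPM) and Alp10, an alkaline phosphatase (110.3 CPM). The same 10-day library was the highest on the midgut list (15620 CPM), the fat body list (1222 CPM) and the immune signalling list (929.5 CPM).

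The 10-day 30 min B library stood apart from its group on the DNA repair list, at 907.8 CPM, and on the glia list, at 3492 CPM.

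The age difference had opposite signs at the 2 times, in both letters, for 3 named genes. The difference at 30 min minus that at 0 min was 3.096 for Cyp6g2, 2.837 for Akh and -7.489 for Jon99Ciii on the log2 scale. None of the 3 passed edgeR's quasi-likelihood test of that difference (adjusted p = 1 for each), and DESeq2 called Cyp6g2. The Jon99Ciii value rests on the 10-day 30 min A library, where the midgut list was highest. It was -2.638 without it, at 0 to 5.216 CPM in the remaining libraries.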

How the results depend on the processing

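Over both times, 0 genes passed in edgeR, and 0 without the replicate block (542 at an unadjusted p under 0.05), with DESeq2's size factors, which shifted every difference by -0.03 on the log2 scale, without a filter on low counts, without the time term and with limma on log2(TPM + 1). DESeq2's own test called 94, and 9, 38 and 1 at 0 min, at 30 min and for the interaction. All 23 brain libraries in 1 fit gave 1, path. Leaving out 1 library at a time gave 0 to 3, with the 3, all lower, without the 10-day 30 min B library. At 30 min, 3 genes passed without a filter. The fragment-length term could not be fitted, being identical to the letter. Same-letter deviations correlated between groups at -0.35 to 0.88, so they did not show the letters as pairs throughout. The matched pairs are therefore pairs by label alone.

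Fits chosen after seeing the data gave 106 genes without both 25-day B libraries and the 10-day 30 min A library, 29 in A alone and 7248 in B alone, and 3 at 30 min without both 25-day B libraries. HDAC6 changed sign to 0.257 without both 25-day B libraries, 0.385 without the 10-day library too and 0.26 in A alone, and cbt to -0.074, -0.071 and -0.072. CG30031 ran from -6.641 to 0.935 when 1 library was left out, with 0.935 reached without the 10-day 30 min A library. It stood at 1.819 without that and both 25-day B libraries. Apart from that 10-day library its only level above 0 was 1.139 CPM, in the 25-day 30 min A library. Its sign without the 10-day library thus gives no direction. The cause of these sign changes was not tested. The 10 leading higher genes kept their direction in all 19 alternatives each, Sting between 1.26 and 1.73 and NimC1 between 1.03 and 1.67. These alternatives reuse the libraries by which the genes were chosen, so they give no independent support. Every library held at least 26 M counts, and the 25-day group held 2 libraries that stood apart from the rest.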

Other observations

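apolpp, which encodes the main lipoprotein of fly blood, stood at 1091 and 1175 CPM in the 25-day A libraries and at 4069 and 3301 CPM in the 25-day B libraries, against 1212 and 745 CPM in the 10-day A libraries and 1054 and 1042 CPM in the 10-day B libraries. Its 25-day A values lay within the 10-day range and its B values above it. CarT, the carcinine transporter of photoreceptors, stood at 7.995 and 6.21 CPM in the 25-day A libraries and at 2.96 and 1.65 CPM in the 25-day B libraries, against 3.26 and 2.92 CPM in the 10-day A libraries and 1.63 and 1.38 CPM in the 10-day B libraries. It was higher at 25 days within each letter, with a log2 difference of 0.88 ± 0.23 (SE; edgeR's quasi-likelihood test, adjusted p = 0.328).

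The circadian gene vri, a transcriptional repressor of the clock, stood at 20.3 and 18.4 CPM in the 25-day A libraries and at 26.1 and 21.6 CPM in the 25-day B libraries, against 15.8 and 16.9 CPM in the 10-day A libraries and 19.0 and 16.4 CPM in the 10-day B libraries. It was higher in 4 of 4 pairs, and 1 of 17 circadian genes, vri itself, was higher at an unadjusted p under 0.05, near the 5.17% of all genes.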
